A study of Mus musculus with 6 samples.

Results

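Haem is made from glycine and succinyl-CoA by enzymes that begin in the mitochondrion, pass through the cytosol and end in the mitochondrion, where iron is inserted into the finished ring. The 9 genes described here are 7 enzymes of that route, taken in pathway order (Alas2, Alad, Uros, Urod, Cpox, Ppox and Fech), and 2 carriers of the inner mitochondrial membrane (Slc25a37 and Slc25a38). They were chosen by name from 40808 gene IDs in the table, by a rule that uses no measured value. Red cell precursors carry most of the body's haem synthesis, and in the mouse the spleen is a site of red cell formation throughout life. Alas2 is the erythroid form of the first enzyme, 5-aminolevulinate synthase, Slc25a37 (mitoferrin 1) brings iron into the mitochondrion, and Slc25a38 is a carrier linked to the supply of glycine.

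The RNA came from leukaemia cells of the spleen of mice that had received transplanted bone marrow, per the labels' protocols. There were 3 libraries labelled as not receiving Dox (replicates 4, 5 and 6) and 3 labelled as receiving it (replicates 10, 11 and 12). Dox is not spelled out in the labels, which give no dose, duration, genotype, strain, sex or age for either group, and they do not say whether replicates are separate animals, so p-values measure only the spread between these libraries. Poly(A) 3′ ends were sequenced, and library totals ran from 5541486 to 8725767 counts.

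The groups differed in cell markers as well as in the labelled treatment. The summed level of 12 T cell markers was 2812 to 2980 normalized CPM (counts scaled to a common library size after TMM correction) without Dox and 192 to 211 with Dox, so the Dox libraries were low in T cell RNA. The sum of 10 B cell markers was 140 to 160 CPM without Dox and 2056 to 2239 with Dox, that of 10 neutrophil markers 53.4 to 68.8 and 2245 to 2385, that of 8 megakaryocyte markers 67.8 to 76.5 and 241 to 321, and that of 30 erythroid markers 3158 to 3457 and 3659 to 3901. The 10 proliferation markers summed to 4013 to 4301 CPM without Dox and 2722 to 3204 with Dox, 7 of them lower and 0 higher, where 22.1% of all tested genes were lower and 23.6% higher. The 12 red pulp macrophage markers summed to 729 to 886 CPM without Dox and 721 to 965 with Dox, and the groups overlapped. Xist had 193 to 324 counts without Dox and 3347 to 5669 with Dox, while 4 Y-linked genes together had 545 to 801 counts without Dox and 0 with Dox, so that Dox and sex-linked expression cannot be told apart. In bulk RNA, fewer cells of a type and less RNA per cell cannot be told apart either. Dox libraries were also less alike, with a common biological coefficient of variation of 0.515 against 0.190 for the libraries without Dox.

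Alas2 mRNA carries an iron-responsive element, a hairpin in the 5′ untranslated region that iron regulatory proteins bind, which ties the first step of haem synthesis to iron supply. A search of GENCODE M21 transcripts (GRCm38) looked for a C, 5 bases, the loop CAGTG with a last base other than G, and 5 bases pairing with the first 5, G with T allowed. It found the pattern in 222 of 21877 protein-coding genes (1.01%) and in 1 of the 9 genes, Alas2. The Alas2 element lies in exon 1, at chrX:150547459-150547485 on the plus strand. The elements of the ferritin chains Fth1 (chr19:9982733-9982759, plus strand) and Ftl1 (chr7:45459780-45459806, minus strand) and the first of 4 in the transferrin receptor Tfrc (3′ untranslated region, chr16:32631220-32631246, plus strand) are shown beside it because these mRNAs are read by the same proteins. Capitals mark the loop.
Alas2: tggttcgtcctCAGTGCagggcaacag
Fth1: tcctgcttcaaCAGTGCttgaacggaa
Ftl1: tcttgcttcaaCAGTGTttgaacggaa
Tfrc: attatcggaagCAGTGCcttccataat

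Promoters were read from the RefSeq table (GRCm38.p6), which matched 7 of the 9 genes with 9 windows, leaving Fech and Slc25a37 without one. The 250 bases upstream of each start were searched on both strands for the GATA motif (AGATAA, with T also taken as the first base and G as the last), bound by the erythroid factor GATA1 and its relatives, for the CACCC box (CCACNCCC), bound by KLF1 and related factors, and for the NF-E2 core (TGANTCA). Matches to the GATA motif were found in 3 of the 9 windows, those of Alas2, Cpox and the second of 2 Uros starts, beside 26.5% of all 32851 windows. The CACCC box was found in Alas2 alone among the 7 genes, beside 15.9% of all windows, and the NF-E2 core in 0, beside 6.75%. These 3 windows are printed because they hold the motifs, with the motifs in capitals as they read on the gene's strand: Alas2 at chrX:150547167-150547416 (plus strand), Uros at chr7:133702501-133702750 (minus strand, inside the gene) and Cpox at chr16:58669958-58670207 (plus strand).
Alas2: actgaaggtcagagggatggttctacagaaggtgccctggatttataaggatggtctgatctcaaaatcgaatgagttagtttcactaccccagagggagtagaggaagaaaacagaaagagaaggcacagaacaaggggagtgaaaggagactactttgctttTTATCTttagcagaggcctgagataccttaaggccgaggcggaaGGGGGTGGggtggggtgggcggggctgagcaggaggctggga
Uros: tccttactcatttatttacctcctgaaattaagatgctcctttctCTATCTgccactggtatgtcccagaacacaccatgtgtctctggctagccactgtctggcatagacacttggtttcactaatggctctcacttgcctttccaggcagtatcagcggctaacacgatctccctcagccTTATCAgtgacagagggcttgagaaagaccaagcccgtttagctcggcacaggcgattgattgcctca
Cpox: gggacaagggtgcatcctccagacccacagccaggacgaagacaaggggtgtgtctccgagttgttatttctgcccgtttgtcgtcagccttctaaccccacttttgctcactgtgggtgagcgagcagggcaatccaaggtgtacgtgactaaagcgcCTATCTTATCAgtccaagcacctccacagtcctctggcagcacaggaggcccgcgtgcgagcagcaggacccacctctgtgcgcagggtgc
The GATA match ends 81 bases before the start in Alas2. In Cpox 2 matches overlap by 1 base and the nearer also ends 81 bases before the start. The 3 genes with the motif differed in what they did: Alas2 rose with Dox, Cpox fell and Uros did not pass the test, as the values below give. Reads from 3′ ends do not show which Uros start was used.

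All 9 genes passed the low-count filter and were tested. With Dox, 3 rose (Alas2, Slc25a37 and Fech), 1 fell (Cpox) and 5 missed the threshold of 0.05 on the adjusted p-value (quasi-likelihood test of edgeR, adjusted by Benjamini-Hochberg over 14110 genes). Over all tested genes 45.6% were called, 23.6% as higher and 22.1% as lower, so 4 of 9 is near the background share. The median log2 fold change of the 9 genes was 0.27, beside 0.07 over all tested genes. Libraries of the 2 groups were fully separated for 5 of the 9 genes, beside 59.6% of all tested genes. Together the 9 genes held 0.0894% ± 0.0091 of each library's counts in the group without Dox and 0.159% ± 0.0157 in the Dox group (mean ± SD, n = 3 each), with no overlap (p = 0.1 in an exact two-sided permutation test, the lowest value possible with 3 against 3).

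**Figure D1:**
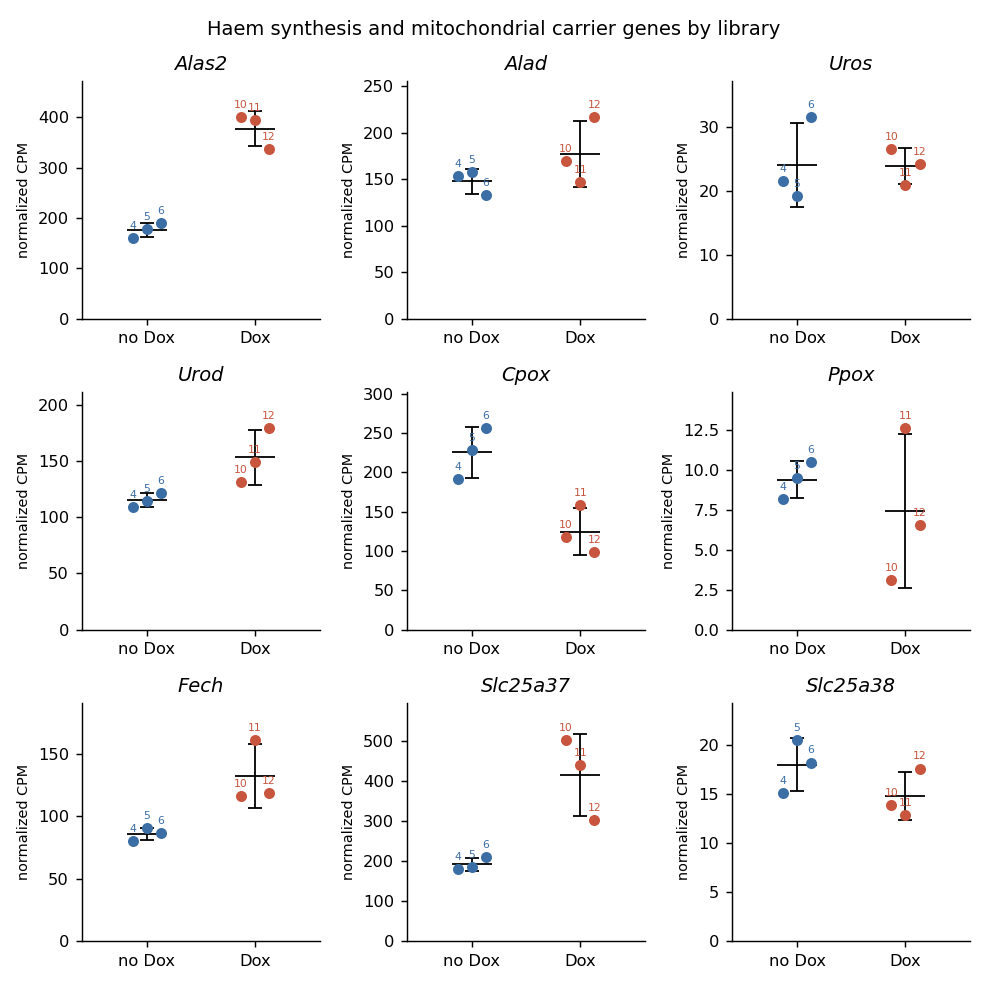
Normalized CPM (linear axis from 0) of each of the 9 genes in the 3 libraries without Dox (blue) and the 3 with Dox (red), labelled by replicate; the long bar is the mean and the whiskers are 1 SD. Alas2 and Slc25a37 are higher in every Dox library, Cpox is lower in every Dox library, and Ppox spreads from 3.11 to 12.6 CPM among the Dox libraries.

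The first and rate-limiting enzyme had one of the largest rises among the 9 genes. Alas2 (Entrez gene 11656, chrX:150547417-150570622) was at 161, 178 and 190 CPM in replicates 4, 5 and 6 without Dox and at 400.2, 395 and 337 CPM in replicates 10, 11 and 12 with Dox. The lowest Dox library was well above the highest library without Dox, and the spread within each group was small. The fitted change was 2.15-fold (log2 fold change 1.10 ± 0.15 (SE), edgeR adjusted p = 0.00029). It was called in all 16 alternative fits, at log2 fold changes of 0.97 to 1.41. Alas2 is X-linked, and the groups also differed in Xist, as given above; the part of this in its rise was not tested.

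Alas1 encodes the form of the same enzyme that other cells use. It was at 17.8, 19.4 and 11.3 CPM without Dox and at 29.2, 32.4 and 11.5 CPM with Dox. Replicate 12 lay at the level of the libraries without Dox, and the test was not passed (log2 fold change 0.60 ± 0.41 (SE), edgeR adjusted p = 0.258); without that library it was 0.92 with an adjusted p-value of 0.026. Alas2 counts per Alas1 count were 11.7 ± 4.4 without Dox and 18.4 ± 9.5 with Dox (mean ± SD, n = 3 each), and the groups overlapped (exact two-sided permutation p = 0.3, 0.3 after adjustment over 4 ratios).

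The enzymes of the cytosolic part of the pathway changed less. Alad, which joins pairs of 5-aminolevulinate into porphobilinogen, was at 154, 157 and 133 CPM without Dox and at 169, 147 and 217 CPM with Dox. The groups overlapped through replicate 11, and the log2 fold change was 0.27 ± 0.19 (SE, edgeR adjusted p = 0.265).

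Uros closes the ring as uroporphyrinogen III. It was at 21.6, 19.2 and 31.6 CPM without Dox and at 26.6, 20.96 and 24.3 CPM with Dox, from 95 to 205 counts per library. Both groups covered the same range, and the log2 fold change was -0.01 ± 0.28 (SE, edgeR adjusted p = 0.989), an interval that leaves room for a modest change either way. Urod, which removes carboxyl groups from the ring, was at 109, 115 and 122 CPM without Dox and at 131, 149 and 179 CPM with Dox. The groups did not overlap, yet the log2 fold change of 0.42 ± 0.17 (SE) missed the threshold (edgeR adjusted p = 0.074). Urod was called as higher in 4 of the 16 alternative fits, among them scaling by library size only (0.72, adjusted p = 0.0061).

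The last enzymes, which act in the mitochondrion, moved in different directions. Cpox (Entrez gene 12892, chr16:58670208-58680391), the oxidase that makes protoporphyrinogen IX, was at 192, 229 and 256 CPM without Dox and at 117, 158 and 98.7 CPM with Dox. Each Dox library was below each library without Dox. Cpox was 1.80-fold lower with Dox (log2 fold change -0.85 ± 0.21 (SE), edgeR adjusted p = 0.0078). It was called in 15 of the 16 alternative fits and lost the call when libraries were scaled by size only (log2 fold change -0.54, adjusted p = 0.067), a scaling that moves the median of all genes up by 0.31.

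Ppox, which oxidises the ring to protoporphyrin IX, had the fewest counts, 23 to 123 per library. It was at 8.18, 9.49 and 10.5 CPM without Dox and at 3.11, 12.6 and 6.53 CPM with Dox. Dox libraries lay on both sides of the libraries without Dox and differed more among themselves than the groups did (log2 fold change -0.33 ± 0.53 (SE), edgeR adjusted p = 0.642). Fech, the ferrochelatase that inserts iron, was at 80.3, 90.6 and 86.5 CPM without Dox and at 116, 162 and 119 CPM with Dox. The groups did not overlap, with replicate 11 highest, and the rise was 1.55-fold (log2 fold change 0.63 ± 0.18 (SE), edgeR adjusted p = 0.019). The call for Fech was lost in 6 of 16 alternative fits: without a low-count filter, with the trend along transcript length removed (log2 fold change 0.08, adjusted p = 0.737), and without replicate 4, 5 or 6 of the group without Dox or replicate 11 of the group with Dox (adjusted p-values of 0.112, 0.089, 0.1002 and 0.070).

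**Figure D2:**
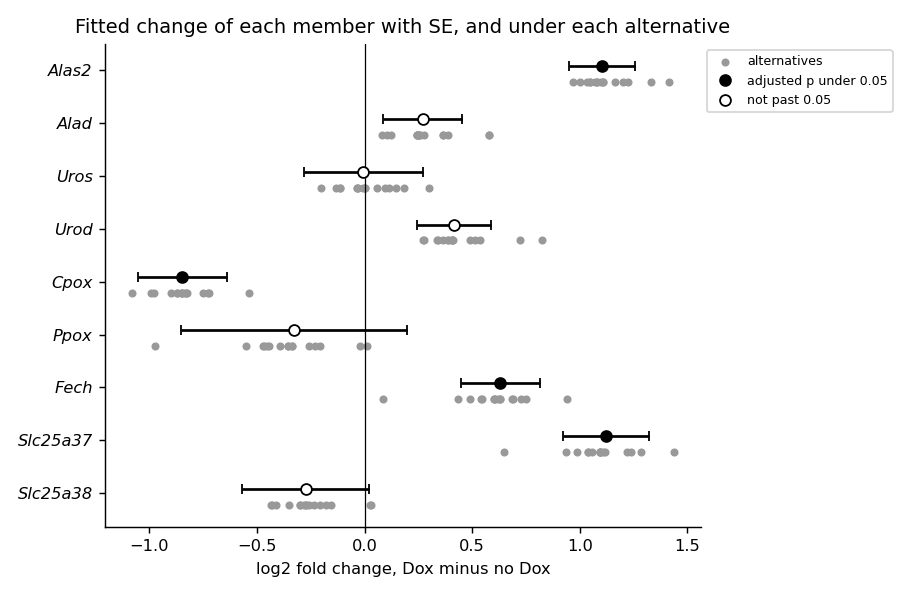
Log2 fold change (Dox minus no Dox) of each of the 9 genes in pathway order, with its SE as whiskers; filled circles had an adjusted p-value under 0.05 by edgeR, open circles did not, and grey points are the 16 alternative fits. Alas2 and Slc25a37 stay to the right of 0 and Cpox to the left in every fit, while 1 of the grey points of Fech is at 0.08.

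Of the mitochondrial carriers, the iron importer rose and the glycine-linked carrier did not. Slc25a37 (Entrez gene 67712, chr14:69241848-69285544) was at 179, 185 and 210 CPM without Dox and at 503, 439 and 303 CPM with Dox. Dox libraries were all higher but more spread, from 303 to 503 CPM. The rise was 2.18-fold (log2 fold change 1.12 ± 0.20 (SE), edgeR adjusted p = 0.0013) and was called in all 16 alternative fits, at log2 fold changes of 0.65 (length trend removed) to 1.44 (library size only). Slc25a38 was at 15.2, 20.6 and 18.2 CPM without Dox and at 13.9, 12.9 and 17.6 CPM with Dox, from 102 to 135 counts per library. The groups overlapped through replicate 12 (log2 fold change -0.27 ± 0.29 (SE), edgeR adjusted p = 0.478), and its sign turned by library size only and with the length trend removed (0.03 in both).

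Mitoferrin 2, encoded by Slc25a28, is the form found in most tissues. It went from 13.4, 8.07 and 10.6 CPM to 38.0, 44.4 and 24.7 CPM and rose 3.33-fold (log2 fold change 1.74 ± 0.32 (SE), edgeR adjusted p = 0.0017). Slc25a37 counts per Slc25a28 count were 18.7 ± 4.9 without Dox and 11.8 ± 1.7 with Dox (mean ± SD, n = 3 each), so the erythroid form had the smaller rise on average. The groups did not overlap but nearly touched, at 13.4 in replicate 4 without Dox and 13.2 in replicate 10 with Dox (exact two-sided permutation p = 0.1, 0.133 after adjustment over 4 ratios). Slc25a28 had only 40 to 90 counts per library without Dox. Fech counts per Ppox count were 9.21 ± 0.83 and 22.8 ± 12.8, and Alas2 counts per Fech count 2.06 ± 0.12 and 2.91 ± 0.51 (mean ± SD, n = 3 each), both without overlap (exact two-sided permutation p = 0.1, 0.133 adjusted). Each of these ratios is taken within a library and needs no scaling between libraries.

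The 9 genes were then set against the erythroid markers of the same library, a ratio that shows whether a gene moved with the summed level of those markers. The marker list was not uniform: 16 of its 30 genes rose and 4 fell with Dox, beside 23.6% and 22.1% of all tested genes. Among those that rose most were Trim58, a ubiquitin ligase of late erythroblasts (0.58 ± 0.52 to 10.1 ± 0.93 CPM), and Tspo2 (29.6 ± 4.9 to 121 ± 8.9 CPM; SD, n = 3 each). Those that fell included the carbonic anhydrase Car1 (143 ± 12 to 36.1 ± 6.9 CPM) and the blood group gene Rhd (102 ± 17.5 to 34.1 ± 8.5 CPM; SD, n = 3 each). Per 1000 marker counts, Alas2 had 51.0, 55.3 and 54.9 in the libraries without Dox and 105, 101 and 92.2 in the Dox libraries. Slc25a37 had 56.7, 57.5 and 60.7 against 132, 112 and 82.9 in the Dox libraries. Both were higher on this measure too, by 1.85-fold and 1.84-fold, somewhat less than in CPM. Cpox had 60.6, 70.9 and 74.0 without Dox against 30.7, 40.5 and 27.0 in the Dox libraries, 2.12-fold lower. Groups of 4 genes did not overlap on this measure, Alas2, Slc25a37 and Fech higher and Cpox lower (exact two-sided permutation p = 0.1 each, 0.225 after adjustment over 9 genes, in a design that cannot go below 0.1). The share of all tested genes separated on this measure was not computed. In CPM that share was 59.6%, so separation of 4 of the 9 genes does not set them apart from other genes. Urod, which was separated in CPM, overlapped here.

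**Figure D3:**
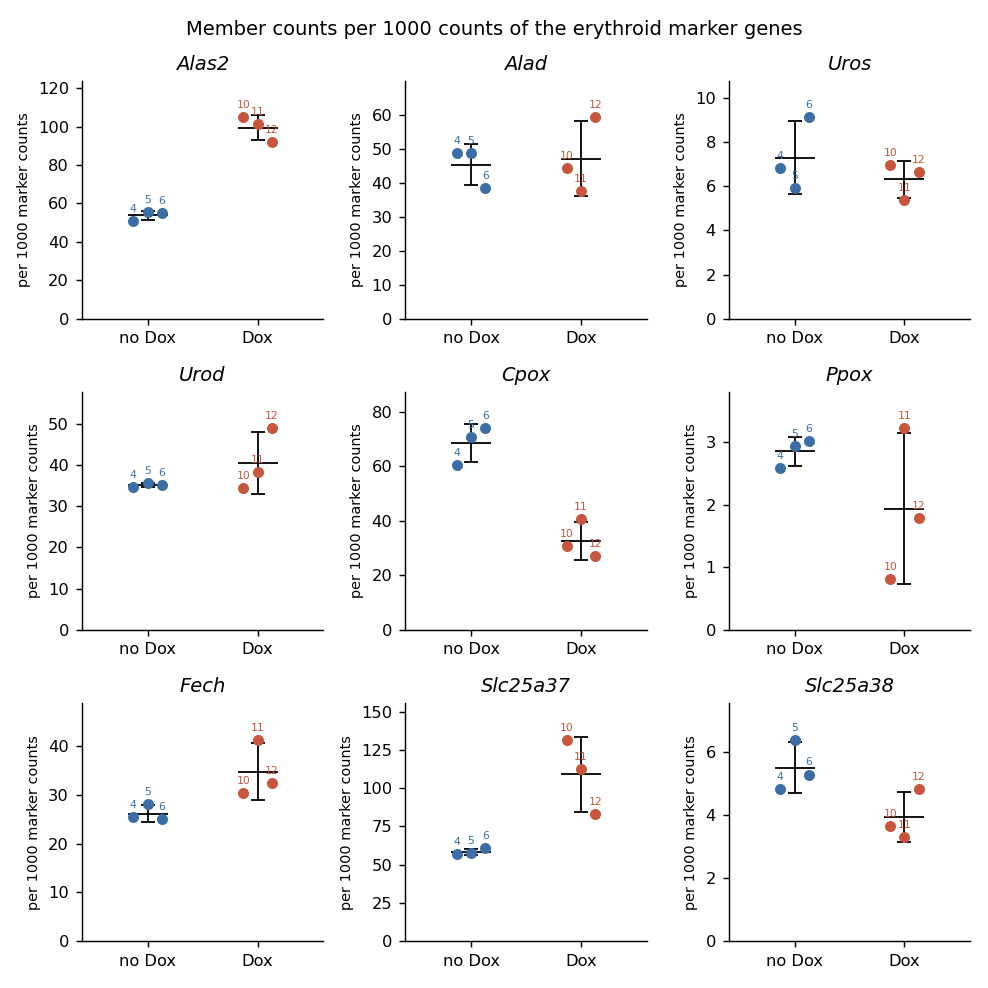
Counts of each of the 9 genes per 1000 counts of the 30 erythroid marker genes in the same library (linear axis from 0), for 3 libraries without Dox (blue) and 3 with Dox (red), labelled by replicate; the long bar is the mean and the whiskers are 1 SD. Alas2 lies at 51.0 to 55.3 without Dox and 92.2 to 105 with Dox, Cpox at 60.6 to 74.0 and 27.0 to 40.5.

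Globin, the protein that takes up most of the haem in red cells, did not move as a unit, so a ratio to globin depends on which chain is used. The share of counts on globin genes was 8.87% ± 0.23 in the group without Dox and 15.3% ± 0.98 in the Dox group (mean ± SD, n = 3 each), with an exact two-sided permutation p of 0.1. The alpha genes Hba-a1 and Hba-a2 rose by 0.95 ± 0.09 and 1.01 ± 0.09 (SE) on the log2 scale (edgeR adjusted p = 3.0e-05 and 2.2e-05). The beta gene Hbb-bs fell (log2 fold change -1.23 ± 0.13 (SE), edgeR adjusted p = 4.4e-05), as did the minor alpha-like gene Hbq1b (log2 fold change -1.29 ± 0.38 (SE), adjusted p = 0.019), while Hbb-bt was not called (log2 fold change -0.24 ± 0.20 (SE), adjusted p = 0.361). The call of Hbq1b was lost with the length trend removed, by library size only and when replicate 6 was left out, its adjusted p-values reaching 0.237. Hba-a1 and Hba-a2 are near-identical copies, as are Hbb-bs and Hbb-bt, so the values of the single genes are uncertain where reads are shared. Hba-a1 counts per adult beta globin count averaged 0.760 ± 0.046 without Dox and 2.75 ± 0.56 in the Dox group (mean ± SD, n = 3 each). Per 1000 counts of all globin genes, Alas2 was 1.79 ± 0.24 without Dox and 2.75 ± 0.15 with Dox, and Cpox was 2.29 ± 0.45 and 0.907 ± 0.193 (mean ± SD, n = 3 each). Against Hba-a1 alone the log2 difference for Alas2 was 0.16, with overlapping values (exact two-sided permutation p = 0.2), whereas against the beta genes it was 1.99, and Cpox went from -1.81 against Hba-a1 to 0.02 against the beta genes.

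**Figure D4:**
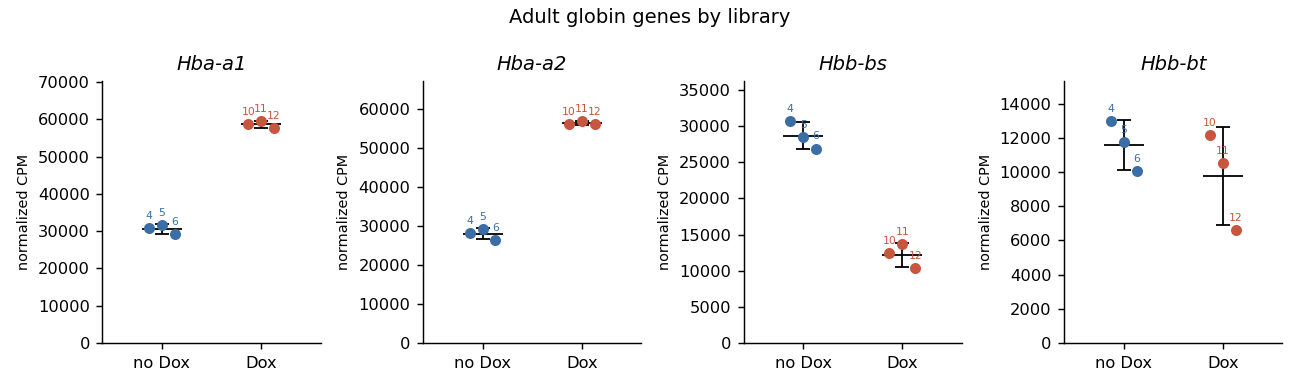
Normalized CPM (linear axis from 0) of the 4 adult globin genes in 3 libraries without Dox (blue) and 3 with Dox (red), labelled by replicate; the long bar is the mean and the whiskers are 1 SD. Both alpha genes are higher in each Dox library, Hbb-bs is lower in each, and Hbb-bt overlaps.

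The rest of the pathway was read from a list of 41 genes, of which 9 rose, 12 fell and 20 did not pass the threshold, near the background of 23.6% called higher and 22.1% called lower over all tested genes. Its median log2 fold change was -0.30, beside 0.07 over all tested genes. Among its genes of synthesis and the mitochondrion 3 of 17 rose and 6 fell. Abcb10, an inner membrane transporter that partners with mitoferrin 1, went from 61.0, 65.8 and 80.9 CPM to 158, 230.2 and 166 CPM and rose 2.68-fold (log2 fold change 1.42 ± 0.20 (SE), edgeR adjusted p = 0.00036). Slc25a28, given above, also rose. Slc25a39, a carrier of mitochondrial glutathione (log2 fold change -0.30 ± 0.19 (SE), adjusted p = 0.231), and Tmem14c, which moves porphyrin into the matrix (-0.46 ± 0.21, adjusted p = 0.097), did not pass by edgeR. Tmem14c was called lower without a low-count filter (adjusted p = 0.023) and by limma-voom with group weights (adjusted p = 0.035). The genes that fell included Nfs1 (4.63-fold), which supplies sulphur for iron-sulphur clusters, Isca1, which acts in the same assembly, Clpx, Pgrmc1 and Sfxn1. Iron-sulphur assembly and haem synthesis draw on the same mitochondrial iron.

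Among its genes of iron supply and haem disposal, 6 of 24 rose and 6 fell, again near the background. The transferrin receptor Tfrc, the main entry of iron into red cell precursors, went from 216, 245 and 245 CPM to 327, 303 and 318 CPM (log2 fold change 0.43 ± 0.14 (SE), edgeR adjusted p = 0.033); this call was lost in 7 of the 16 alternative fits. Steap3, which reduces iron after its uptake, and Slc11a2, which carries it out of the endosome, fell 3.94-fold and 3.13-fold (edgeR adjusted p = 0.0024 and 0.0051). The ferritin heavy chain Fth1 had the largest fall of the list, from 991, 899.6 and 830.0 CPM to 159, 184 and 211 CPM (4.89-fold lower, log2 fold change -2.29 ± 0.16 (SE), edgeR adjusted p = 5.6e-06). The light chain Ftl1 went the other way, from 615, 535 and 591 CPM to 835, 832 and 700 CPM (log2 fold change 0.45 ± 0.14 (SE), edgeR adjusted p = 0.027), a call lost in 6 alternative fits. Among the genes whose elements are printed above, Alas2, Ftl1 and Tfrc rose and Fth1 fell. These counts give mRNA levels only, and control through the elements was not tested. Fbxl5, which degrades an iron regulatory protein, rose 2.74-fold and Eif2ak1, the haem-regulated kinase of translation, rose 2.18-fold (edgeR adjusted p = 0.00050 and 0.00045). Hmox1, the enzyme that breaks haem down, was at 58.4, 77.1 and 83.3 CPM without Dox and at 59.3, 50.6 and 18.1 CPM with Dox and did not pass by edgeR (adjusted p = 0.119). It was called lower in 2 of the 16 alternative fits, without a low-count filter (log2 fold change -0.89, edgeR adjusted p = 0.0020) and by limma-voom with group weights (-0.89, adjusted p = 0.028).

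**Figure D5:**
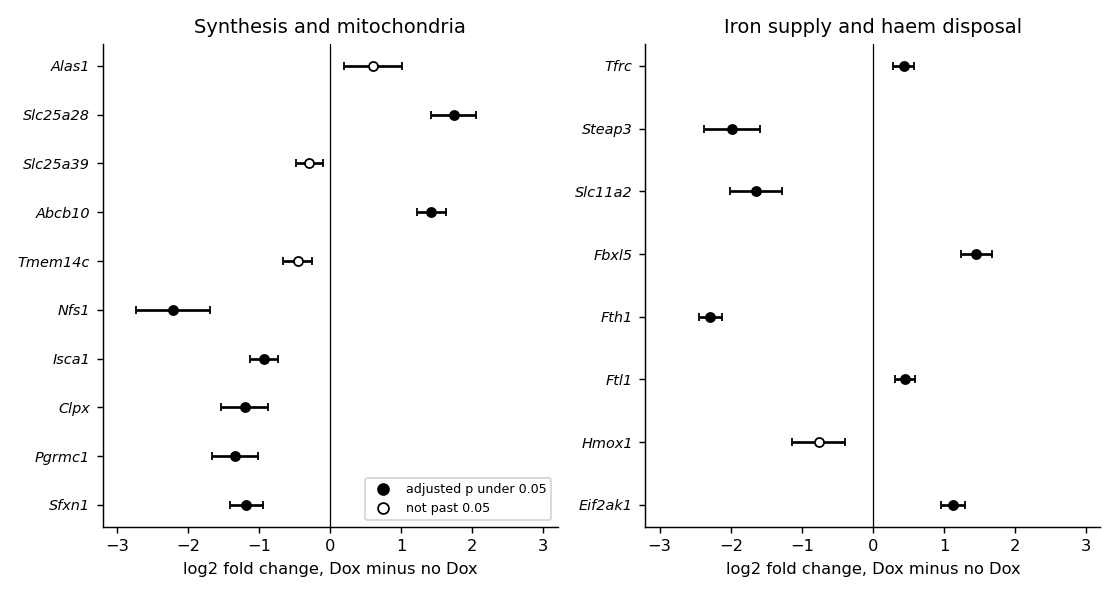
Log2 fold change (Dox minus no Dox) with its SE for the genes named in the text from the lists of haem synthesis and mitochondria (left) and of iron supply and haem disposal (right); filled circles had an adjusted p-value under 0.05 by edgeR. Slc25a28 and Abcb10 lie farthest right on the left panel, and Fth1 lies at -2.29 on the right panel.

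Among the better expressed tested genes, Ccnd2, H2-Eb1, Rgs18 and Ctss were among those whose pattern over the 6 libraries was most like that of Alas2 (Pearson's r of log2 CPM from 0.998 to 0.999), and Etnk1, Pcmtd1, Gga2, Lpcat1 and Cavin1 were most like Slc25a37 (r from 0.994 to 0.999). Between Alas2 and Slc25a37 r was 0.970, and 0.884 for the deviations from group means. These values describe 6 libraries in 2 groups that share depth and composition, and the best of 7055 ranked genes are high by selection.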

How the data were processed

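The authors deposited raw read counts by Entrez gene ID for 6 QuantSeq 3′ mRNA libraries, per the labels' protocols. The submitters' processing notes name STAR, featureCounts and GRCm38; versions, settings and the handling of shared reads are not given in the sources used here. Such libraries yield about 1 fragment per transcript, so counts were not scaled by length. Columns were matched to samples by title, with 0 left over. Symbols came from RefSeq (GRCm38.p6) and matched 39374 of 40808 IDs.

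Genes were tested with edgeR 4.0.16 (R 4.3.3): filterByExpr (minimum count 10, minimum total 15), TMM scaling, quasi-likelihood F-test, 3 against 3 with no covariate, Benjamini-Hochberg adjustment, threshold 0.05. Each SE is the log2 fold change divided by the root of its F statistic. Ratios within a library were compared by exact two-sided permutation. A floor of 3 counts was 0.31 to 0.61 normalized CPM, covering counting error only. The code was tested on simulated data. The 9 genes and all lists were chosen with earlier results of these data known. Of 192 list entries, 6 matched no further gene. Named genes were the 9 members, 10 set companions, and the 3 largest rises and falls among called genes per list; Isca1, Clpx, Pgrmc1, Sfxn1, Slc11a2, Eif2ak1 and Hbb-bt were named after their values were seen, and some genes the rule names are not reported here. Alternatives were other scalings and filters, globin genes left out, DESeq2 1.42.0, limma 3.58.1 voom with and without group weights, a threshold of 0.01, each library left out in turn and, chosen after the data were seen, a loess trend with transcript length removed and Hba-a1 as denominator.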

Additional observations from a re-analysis of the deposited data

How the results depend on the processing

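No paired analysis was possible because no number of a library without Dox recurs among the Dox libraries. Alas2, Slc25a37, Slc25a28, Abcb10 and Fth1 kept their direction and call in all 16 alternative fits and at an adjusted p-value under 0.01. By library size only, 5 of the 9 haem genes were higher and 0 lower, while over all tested genes 4257 in place of 3324 were higher and 2359 in place of 3114 lower; 1 globin gene was lower, Alad (0.58, adjusted p = 0.021) and Urod (0.72) passed, Cpox did not (-0.54), and Uros (0.30), Slc25a38 (0.031) and Slc25a39 (0.016) turned to positive. With the length trend removed, Alad (0.58) and Urod (0.83) passed, Fech did not (0.085), Uros (0.18), Slc25a38 (0.027), Slc25a39 (0.040) and Tmem14c (0.15) turned, 8 late erythroid genes were higher and 1 globin gene lower. Urod also passed with upper-quartile factors (0.51) and with at least 10 counts in every library (0.53). Uros turned with these (0.094 and 0.11) and with limma-voom (0.00066). Without a low-count filter Fech was 0.49 (adjusted p = 0.101), and Hmox1 and Tmem14c passed as lower there and with group weights. With the threshold lowered to 0.01, the genes called higher numbered 2200 in place of 3324, Fech (0.63, adjusted p = 0.019) was not called, and 7 late erythroid and 1 globin gene were called higher and lower.

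With 1 library left out at a time, genes called ran from 4794 to 7025, haem genes higher from 2 to 3 with 1 lower throughout, companions higher from 5 (leaving out replicate 5) to 11, late erythroid genes higher from 7 to 14 beside 13 of 20 (3 lower) with all libraries, early erythroid genes higher from 6 to 7 beside 7 of 12 (3 lower), where 23.6% of all tested genes were higher and 22.1% lower, and globin genes lower from 1 to 2 (Hbq1b lost). Log2 fold changes ran from 0.44 to 0.69 for Fech, from -0.20 to 0.15 for Uros and from -0.98 (without replicate 11) to 0.010 (without replicate 10) for Ppox. The share of counts on globin genes differed by 0.89 on the log2 scale when set against the other counts. Log2 differences per adult beta globin count and per Hba-a1 count were 1.99 and 0.16 for Alas2, 1.14 and -0.69 for Alad, 0.91 and -0.92 for Uros, 1.29 and -0.54 for Urod, 0.024 and -1.81 for Cpox, 1.504 and -0.33 for Fech, 1.98 and 0.15 for Slc25a37, 0.61 and -1.23 for Slc25a38, and 0.34 and -1.50 for Ppox. The cause of these changes was not tested. Ppox, Uros and Slc25a38 had the fewest counts of the 9 genes, and the part of depth in their missed calls was not tested.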
